A study of Caenorhabditis elegans with 18 samples.

Results

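The 10 genes described here make, cut or shape the apical extracellular matrix that covers the worm and is replaced at each molt: *mlt-7*, *mlt-8*, *mlt-9*, *mlt-10*, *mlt-11*, *nas-36*, *nas-37*, *noah-1*, *noah-2* and *fbn-1*. They were chosen by symbol, as molting proteases, inhibitors and apical matrix proteins, and each was found by its WormBase identifier among the 24998 genes of an mRNA-Seq table of whole *C. elegans* hermaphrodites on day 1 of adulthood. The table holds 18 libraries, 3 for each of 6 genotypes: the single mutants *fbxl-5(rhd43)*, *lin-29(n333)* and *rict-1(mg360)*, the double mutants that carry *fbxl-5(rhd43)* with either of the other alleles, called *lin-29; fbxl-5* and *rict-1; fbxl-5* below, and wild-type. The single mutant strains were DLS316 (*fbxl-5*), MT333 (*lin-29*) and DLS490 (*rict-1*), the double mutant strains were DLS492 (*lin-29; fbxl-5*) and DLS491 (*rict-1; fbxl-5*), and the wild-type strain was N2. Each genotype was 1 strain, synchronized as L1 larvae, fed *E. coli* OP50 and harvested after about 72 h at 20°C, from plates of many animals. The *rhd43* lesion is a nonsense mutation in *fbxl-5*, which encodes an F-box protein, *rict-1* encodes a component of the mTORC2 kinase complex, and *lin-29* encodes the zinc finger transcription factor at the end of the heterochronic pathway.

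As background, a molting larva secretes a new cuticle under the old one through a transient precuticle, loosens the old cuticle with secreted proteases and sheds it. Most genes for this work are transcribed by the epidermis in a pulse within each larval cycle, and the pulses stop in the wild-type adult. LIN-29 is needed for the larval-to-adult switch of the epidermis, and *lin-29* mutants are known to molt again as adults. The comparisons ask how each genotype differs from wild-type and what loss of *fbxl-5* adds in *lin-29* or *rict-1* animals.

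The genes lie on 6 chromosomes of the WBcel235 assembly, and all are protein coding. *mlt-10* (WBGene00015646) spans 546705 to 552032 and *mlt-8* (WBGene00021095) spans 569210 to 572110 at the left end of chromosome II, where *mlt-7* (WBGene00022743) spans 4393007 to 4404850. *mlt-9* (WBGene00008605, 15101786 to 15107797) and *nas-37* (WBGene00003553, 9944844 to 9949063) are on the X chromosome. *nas-36* (WBGene00003552, 7527224 to 7531715) and *noah-1* (WBGene00016422, 5874416 to 5878958) are on chromosome I, *fbn-1* (WBGene00022816, 7625386 to 7641078) is on chromosome III, *noah-2* (WBGene00009926, 14091254 to 14096626) is on chromosome IV and *mlt-11* (WBGene00012186, 20667205 to 20678537) is on chromosome V. The exons of 5 of them overlap those of another gene, and the library kit does not mark strand, so reads in the overlaps cannot be assigned. The largest part of the exon length is 4.66%, or 109 bases, between *mlt-10* and *lips-7*, which itself averaged 262 normalized counts in *lin-29* and 1.47 in wild-type.

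The libraries held 13434120 to 29733059 reads on genes, and values are read counts divided by a size factor for the library, called normalized counts. Libraries stood apart before any comparison. *lin-29; fbxl-5* replicate 3 had 11397 normalized counts of *col-19*, an adult cuticle collagen, against 386 and 1749 in replicates 1 and 2 of its genotype, 377 to 896 in *lin-29* and 12596 to 18154 in wild-type, so that library lay nearer to wild-type for this marker, and counts that rest on it are also given without it. In *fbxl-5* replicate 3, 30.0% of reads came from ribosomal RNA genes. Of the 4 adult epidermis markers, *col-19* and *col-119* were abundant in wild-type, while *col-7* and *col-120* stayed at or below 3.63 normalized counts in every wild-type library. The 3 mutated genes are not deletions, so their own transcript levels do not check the labels.

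**Figure D1:**
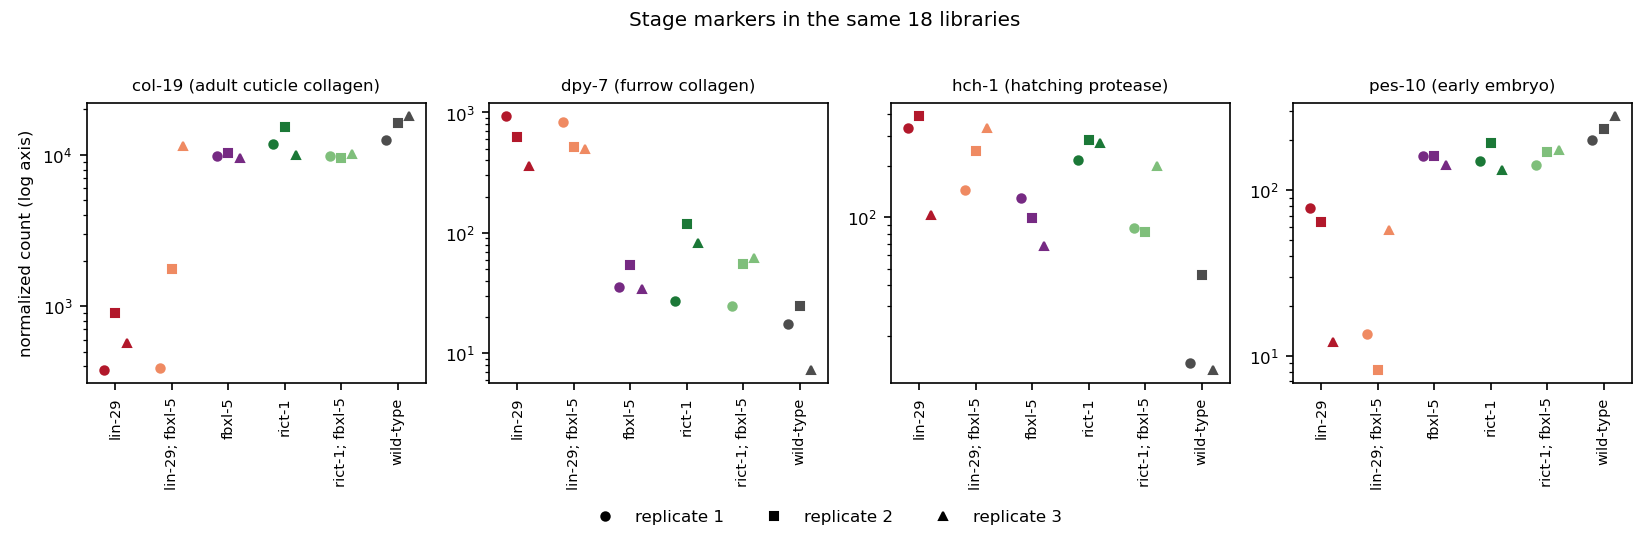
Normalized counts (log axis) of 4 stage markers in the 3 libraries of each genotype, with replicate numbers as symbols. *col-19* is at 11397 in *lin-29; fbxl-5* replicate 3 and at 386 in replicate 1, and *hch-1*, an embryonic hatching protease, is at 217 to 284 in *rict-1* and at 12.7 to 45.7 in wild-type.

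The 10 genes differed most, by their median, in *lin-29* against wild-type. Of them, 8 were higher in *lin-29* than in wild-type and 0 were lower at an FDR of 1%, by limma on log2(normalized count + 1) with Benjamini-Hochberg adjustment over the 13472 genes tested, of which 22.6% were called higher and 18.4% lower. All 10 genes entered that test, and the lowest mean of any of them in any genotype was 15.05, for *mlt-9* in wild-type, above the minimum mean of 10 over all libraries. The median log2 fold change of the 10 genes was 3.35, against -0.01 over all genes tested. For these 8 genes every *lin-29* library lay above every wild-type library, which held for 30.1% of all genes tested. Whole animals were sampled, so more expressing cells and more RNA per cell cannot be told apart.

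Among the genes that were found by molting defects, *mlt-9* and *mlt-8* differed most. *mlt-9* had 1743, 771 and 438 normalized counts in the *lin-29* libraries, replicates 1 to 3, against 10.5, 32.8 and 1.82 in wild-type. Every *lin-29* library was far above every wild-type library, and the lowest wild-type value rested on 2 reads. The log2 fold change of *mlt-9* was 6.35 ± 0.96 (SE, adjusted p = 7.13e-05, limma), and leaving out wild-type replicate 2 gave 7.20, while leaving out wild-type replicate 3 gave 5.41. *mlt-8* had 5339.9, 3004 and 1595 normalized counts in *lin-29*, against 55.0, 69.1 and 37.3 in wild-type, and its log2 fold change was 5.79 ± 0.43 (adjusted p = 5.74e-08, limma). The *mlt-8* ranges were far apart, although the *lin-29* libraries themselves spanned 3.35-fold.

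*mlt-10*, which encodes a secreted protein with proline-rich repeats that is needed to shed the cuticle, had 2522, 1098 and 510.1 normalized counts in *lin-29* and 145, 157 and 154 in wild-type. Wild-type libraries agreed closely here and *lin-29* libraries spanned 4.94-fold, and the log2 fold change was 2.88 ± 0.43 (adjusted p = 5.85e-05, limma). *mlt-11*, which encodes a protein with Kunitz-type protease inhibitor domains, had 6915, 3339 and 2070.3 normalized counts in *lin-29*, against 117, 189.7 and 43.6 in wild-type. Its log2 fold change was 5.18 ± 0.54 (adjusted p = 2.71e-06, limma), and its lowest *lin-29* library remained far above its highest wild-type library.

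*nas-36* and *nas-37* encode astacin metalloproteases needed to shed the old cuticle, and they did not share a pattern. *nas-36* had 318, 267 and 139.9 normalized counts in *lin-29*, against 22.2, 22.3 and 17.3 in wild-type, with a log2 fold change of 3.42 ± 0.29 (adjusted p = 9.94e-08, limma). *nas-37* had 919.6, 392 and 139.9 normalized counts in *lin-29*, on both sides of the 401, 411 and 469.7 in wild-type. Its log2 fold change was -0.20 ± 0.47 (adjusted p = 0.731, limma), and its *lin-29* libraries spanned 6.57-fold, the widest range of the 10 genes in that genotype.

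*noah-1* and *noah-2* encode zona pellucida domain proteins of the apical matrix, and *fbn-1* encodes a fibrillin-related matrix protein. *noah-1* had 4727, 2909 and 1377 normalized counts in *lin-29*, against 265, 447 and 168 in wild-type, and its log2 fold change was 3.29 ± 0.42 (adjusted p = 1.68e-05, limma). *noah-2* had 4847, 3117 and 1589 in *lin-29*, against 191, 319 and 91.8 in wild-type, and its log2 fold change was 4.02 ± 0.45 (adjusted p = 4.47e-06, limma). The *noah* genes followed each other library by library, with replicate 1 highest in *lin-29* and replicate 2 highest in wild-type. *fbn-1* had 1127, 1186 and 615 in *lin-29*, against 124, 294 and 92.7 in wild-type, with a log2 fold change of 2.63 ± 0.39 (adjusted p = 4.74e-05, limma).

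*mlt-7*, which encodes a heme peroxidase that works in cuticle cross-linking, was the other gene with overlapping groups. It had 1132, 1208 and 438 normalized counts in *lin-29*, against 577, 648 and 611 in wild-type. Replicates 1 and 2 of *lin-29* were above and replicate 3 was below all 3 wild-type libraries, and the log2 fold change was 0.46 ± 0.29 (adjusted p = 0.186, limma). Without *lin-29* replicate 3 it was 0.94 (adjusted p = 0.000466, limma), and 9 of the 10 genes were then called higher. *mlt-7* and *nas-37* were also the genes with the highest levels per exon length in wild-type, at 10.996 ± 0.767 and 7.61 ± 0.906 RPKM (SD, n = 3), a level scaled by exon length and by the reads of the library, where the other 8 averaged 0.321 to 3.50 RPKM. In *lin-29* the highest level per length was that of *mlt-8*, at 149 ± 86.6, and that of *mlt-7* was 18.4 ± 8.79.

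**Figure D2:**
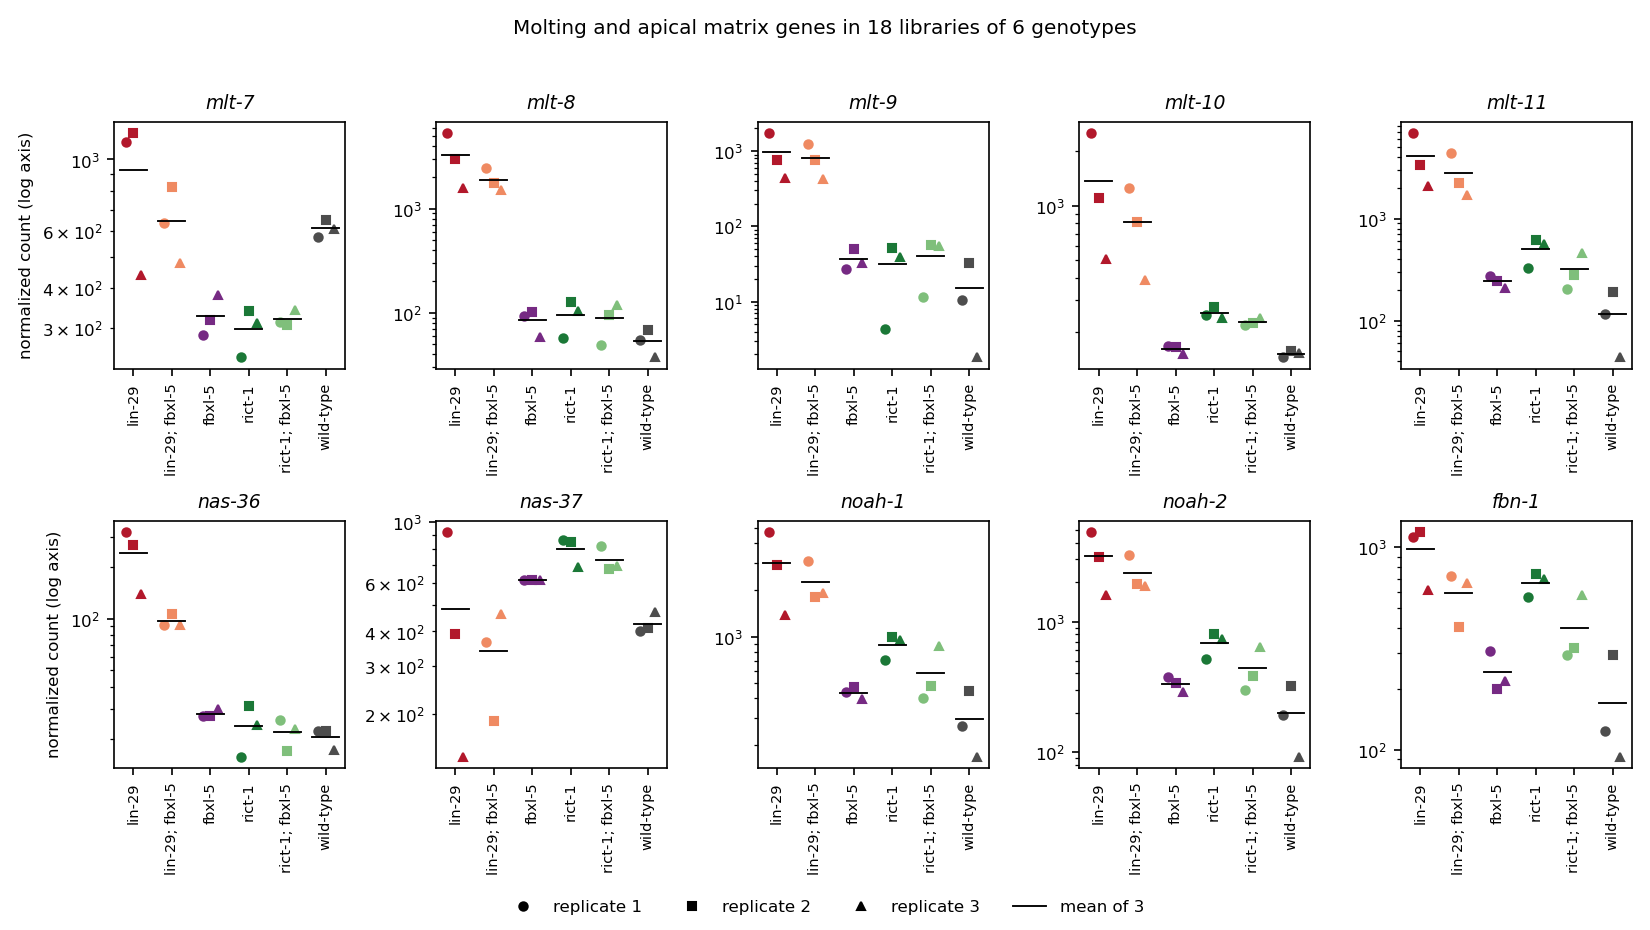
Normalized counts (log axes, a scale per gene) of the 10 genes in the 3 libraries of each genotype; symbols are replicate numbers and lines are means of 3 libraries. For 8 genes every *lin-29* library lies above every wild-type library, for example 139.9 to 318 against 17.3 to 22.3 for *nas-36*, while *mlt-7* and *nas-37* overlap.

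The double mutant *lin-29; fbxl-5* also differed from wild-type at 8 genes, all higher and the same 8, with 19.5% of all genes tested called higher and 19.5% lower. Their median log2 fold change, with the other 2 genes included, was 2.64, against -0.03 over all genes. *mlt-9* had 1224, 752 and 419.8 normalized counts in *lin-29; fbxl-5*, against 10.5, 32.8 and 1.82 in wild-type, and a log2 fold change of 6.14 ± 0.96 (adjusted p = 0.000107, limma). Leaving out wild-type replicate 2 raised this value by 0.86, and leaving out wild-type replicate 3 gave 5.21. *mlt-8* had 2445, 1764 and 1502 in *lin-29; fbxl-5*, *mlt-11* had 4370.2, 2223 and 1715, and *mlt-10* had 1245, 815 and 389.6, all above the wild-type values given above. *noah-1* had 3065, 1806 and 1909, *noah-2* had 3262, 1942 and 1860.2, and *fbn-1* had 720.3, 403 and 669.9. Replicate 1 was the highest library of the double mutant for these 6 genes and for *mlt-9*. The other called log2 fold changes were between 1.94 for *fbn-1* and 5.13 for *mlt-8*, and those of *mlt-7* and *nas-37* were 0.05 and -0.42 (adjusted p = 0.905 and 0.469, limma). *lin-29; fbxl-5* replicate 3, with its adult level of *col-19*, still had 1502 normalized counts of *mlt-8* and 1715 of *mlt-11*, far above the wild-type maxima of 69.1 and 189.7, and without that library the count called remained 8.

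Within *lin-29* animals, loss of *fbxl-5* gave lower means for all 10 genes, but none passed the test. By limma with Benjamini-Hochberg adjustment 0 of 10 were called at an FDR of 1%, where 4.5% of all genes were called lower and 1.32% higher, and 1 gene had an unadjusted p under 0.05. The median log2 fold change was -0.46, against -0.03 over all genes. Without *lin-29; fbxl-5* replicate 3 it was -0.22, against -0.02 over all genes, 0 of 10 genes were called by limma, and 9 had a lower mean in the double mutant, while *mlt-9* averaged 988 normalized counts in *lin-29; fbxl-5* and 984 in *lin-29*. For 9 genes the libraries of both genotypes overlapped when all were used, and 19% of all genes tested did not overlap. The exception was *nas-36*, with 91.9, 107 and 92.0 normalized counts in *lin-29; fbxl-5*, against 318, 267 and 139.9 in *lin-29*. All 3 double mutant libraries were below all 3 single mutant ones and close to each other. The log2 fold change of *nas-36* was -1.23 ± 0.29 (adjusted p = 0.0103, limma), just outside the threshold, and edgeR and DESeq2 on the recovered reads each called it as the 1 gene of the 10 (adjusted p = 0.00324 and 0.000147). Without *lin-29* replicate 3, 2 genes were called lower, *nas-36* at -1.58 (adjusted p = 0.000683, limma) and *mlt-7* at -0.89 (adjusted p = 0.00309, limma).

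In otherwise wild-type animals the same allele gave no call for these genes. In *fbxl-5* against wild-type, limma with Benjamini-Hochberg adjustment called 0 of 10, with 0.586% of all genes called higher and 1.97% lower. At an unadjusted p under 0.05 there were 2 genes, and edgeR and DESeq2 called 0. *mlt-7* had 286, 318 and 381 normalized counts in *fbxl-5*, against 577, 648 and 611 in wild-type, so all *fbxl-5* libraries were lower, with a log2 fold change of -0.90 ± 0.29 (adjusted p = 0.0660, limma). *mlt-11* had 276, 244 and 209 in *fbxl-5*, against 117, 189.7 and 43.6 in wild-type, and *nas-37* had 618, 616 and 614 in *fbxl-5*, against 401, 411 and 469.7 in wild-type. Neither pair of groups overlapped, and the log2 fold changes were 1.28 ± 0.54 and 0.53 ± 0.47 (adjusted p = 0.165 and 0.544, limma). The share of all genes without overlap was not counted for this comparison. A fit of these 6 libraries alone, which does not share the spread of the *lin-29* libraries, called *mlt-7* lower and *nas-37* higher (adjusted p = 1.10e-05 and 0.000338). The share of all genes called in that smaller fit was not counted.

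Whether the effect of *fbxl-5* loss differed between *lin-29* and wild-type animals was tested as an interaction in the limma fit, and 0 of 10 genes passed at an FDR of 1%, where 1.68% of all genes were called lower and 0.713% higher. At an unadjusted p under 0.05 there were 4 genes, edgeR called 0 and DESeq2 called 1. Without *lin-29; fbxl-5* replicate 3 the limma count remained 0. *nas-36* came nearest, with an interaction of -1.67 ± 0.41 on the log2 scale, *fbxl-5* effect in *lin-29* minus that in wild-type (adjusted p = 0.0222, limma), and it was called without *lin-29* replicate 3 (adjusted p = 0.00269). *nas-36* had 27.3, 27.0 and 29.7 normalized counts in *fbxl-5*, against 22.2, 22.3 and 17.3 in wild-type, so the single mutant was the higher group there (log2 fold change 0.43 ± 0.29, adjusted p = 0.396, limma).

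**Figure D3:**
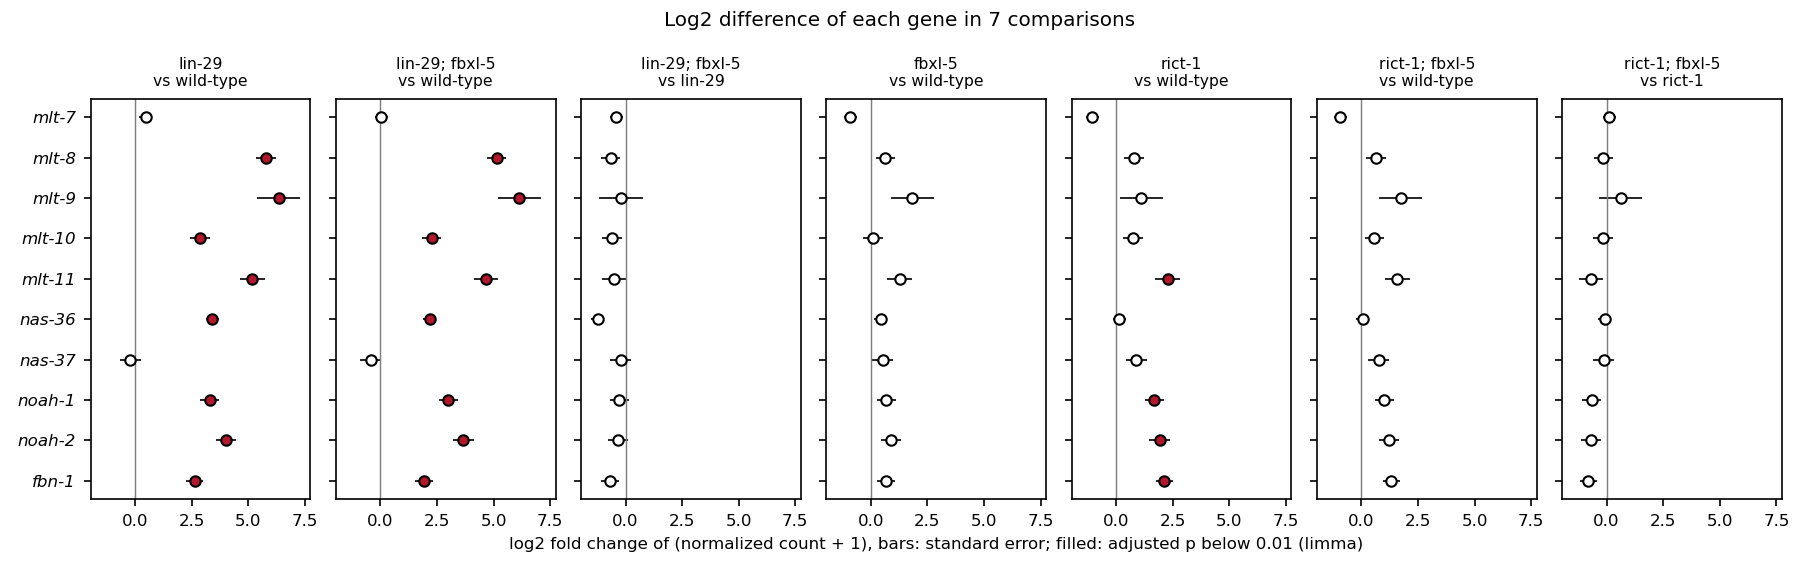
Log2 fold changes of normalized count + 1 for the 10 genes in 7 comparisons, with bars of 1 standard error; filled points had an adjusted p below 0.01 (limma, 13472 genes). The 8 filled points of *lin-29* against wild-type run between 2.63 and 6.35, 4 points are filled for *rict-1* against wild-type, and none is filled where *fbxl-5* loss is compared within *lin-29* or *rict-1*.

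In *rict-1* animals the 3 matrix protein genes and *mlt-11* were higher than in wild-type. At an FDR of 1%, limma called 4 of the 10 genes higher and 0 lower (Benjamini-Hochberg adjustment), with 10.7% of all genes called higher and 5.78% lower, and the median log2 fold change of the 10 was 1.00, against -0.03 over all genes. *fbn-1* had 570.1, 735 and 694 normalized counts in *rict-1*, against 124, 294 and 92.7 in wild-type, and a log2 fold change of 2.13 ± 0.39 (adjusted p = 0.000808, limma). *mlt-11* had 329.6, 613 and 561 in *rict-1*, against 117, 189.7 and 43.6 in wild-type, and a log2 fold change of 2.28 ± 0.54 (adjusted p = 0.00614, limma). For both genes the *rict-1* libraries lay above all wild-type libraries, with replicate 1 the lowest of *rict-1* and replicate 3 the lowest of wild-type.

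*noah-1* had 711, 995 and 949 normalized counts in *rict-1*, against 265, 447 and 168 in wild-type, and *noah-2* had 517, 803 and 739, against 191, 319 and 91.8 in wild-type. Their log2 fold changes were 1.69 ± 0.42 and 1.92 ± 0.45 (adjusted p = 0.00847 and 0.00538, limma), and neither pair of groups overlapped. Their calls depended on single libraries. Without *rict-1* replicate 1, 3 genes were called, and without *rict-1* replicate 2, *rict-1* replicate 3, wild-type replicate 1 or wild-type replicate 3 only *fbn-1* was called (adjusted p at most 0.00589 over all libraries left out). edgeR called 2 of the genes and DESeq2 5, including *mlt-7* as lower, and a fit of these 6 libraries alone called *fbn-1*, *noah-1*, *mlt-10* and *nas-37* higher and *mlt-7* lower. The share of all genes called in that smaller fit was not counted. *mlt-7* had 244, 340.1 and 312 normalized counts in *rict-1*, against 577, 648 and 611 in wild-type, a log2 fold change of -1.04 ± 0.29 (adjusted p = 0.0133, limma).

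*mlt-9* and *mlt-8*, which had the highest log2 fold changes in *lin-29*, and *nas-36* were not called in *rict-1*, and their groups overlapped. *mlt-8* had 56.8, 128 and 103 normalized counts in *rict-1*, against 55.0, 69.1 and 37.3 in wild-type, a log2 fold change of 0.79 ± 0.43 (adjusted p = 0.183, limma). *mlt-9* had 4.37, 51.4 and 38.8 in *rict-1*, against 10.5, 32.8 and 1.82 in wild-type, and the ranges overlapped. *mlt-10* and *nas-37* did not overlap between the genotypes and were not called. The share of all genes without overlap was not counted for *rict-1* against wild-type, for these or for the called genes. *mlt-10* had 249, 274 and 240.3 normalized counts in *rict-1*, against 145, 157 and 154 in wild-type, a log2 fold change of 0.74 ± 0.43 (adjusted p = 0.215, limma). *nas-37* had 859, 847 and 685 in *rict-1*, against 401, 411 and 469.7 in wild-type, a log2 fold change of 0.89 ± 0.47 (adjusted p = 0.169, limma).

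The order of the 6 genotype means was shared by 5 genes, *mlt-8*, *mlt-10*, *mlt-11*, *noah-1* and *noah-2*: *lin-29*, *lin-29; fbxl-5*, *rict-1*, *rict-1; fbxl-5*, *fbxl-5* and wild-type from high to low. For each of the 5 the libraries of *lin-29* overlapped with those of the double mutant *lin-29; fbxl-5*, all 6 lay above *rict-1*, and except for *mlt-10* the *rict-1* and *rict-1; fbxl-5* libraries overlapped. *noah-1*, for example, averaged 3004 ± 1677, 2259.8 ± 699, 885 ± 153, 584 ± 249, 436 ± 37.7 and 294 ± 142 normalized counts in that order (SD, n = 3 each). *nas-37* had another order. *rict-1* had its highest mean, at 797 ± 97.2, then *rict-1; fbxl-5* at 729 ± 77.2, *fbxl-5* at 616 ± 2.41 and *lin-29* at 484 ± 398 (SD, n = 3 each), and the lowest mean was 339 ± 139.7, in *lin-29; fbxl-5*, against 427 ± 37.1 in wild-type. Of these neighbours, the *fbxl-5* libraries lay below those of *rict-1; fbxl-5*, and the rest overlapped, while *lin-29* had the highest mean of the 9 other genes. Without *lin-29; fbxl-5* replicate 3 the same order still held for 5 genes, and *lin-29* had the highest mean of 8, with *mlt-9* the exception. *mlt-7* had its lowest means outside the *lin-29* backgrounds, at 299 ± 49.4 in *rict-1*, 321 ± 18.2 in *rict-1; fbxl-5* and 328 ± 48.1 in *fbxl-5*, and all 9 of these libraries were below the 3 wild-type libraries, at 612 ± 35.5. *fbn-1* averaged 976 ± 314 in *lin-29*, 667 ± 86.0 in *rict-1* and 598 ± 171 in *lin-29; fbxl-5*, and those 3 genotypes overlapped.

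Stage and tissue markers were counted in the same comparisons. *hch-1* had 217, 284 and 270.4 normalized counts in *rict-1*, against 14.0, 45.7 and 12.7 in wild-type, and was the 1 of 7 embryo markers that was called higher, with 0 lower. That count is near the share over all genes, and the median log2 fold change of the 7 markers was -0.07. The 7 markers summed to 502 to 656 in *rict-1* and 325 to 452 in wild-type, and none was at 0 in all libraries of either genotype. *pes-10*, an early embryo transcript, had 149.5, 191 and 132 in *rict-1*, against 201, 234 and 279.8 in wild-type. The part of embryos or other cells in the higher *fbn-1*, *noah* and *mlt-11* counts was not tested. In *lin-29*, *hch-1* was at 332.6, 392 and 102 and *pes-10* at 78.3, 64.3 and 12.04. Of the 7 embryo markers, 1 was called higher and 2 lower than in wild-type, near the shares over all genes. Their part in the *lin-29* result was likewise not tested. Marker counts here stand beside 22.6% of all genes called higher and 18.4% lower in *lin-29*, and 10.7% and 5.78% in *rict-1*. Of 8 epidermis markers tested, 4 were called higher and 0 lower in *lin-29*, and 3 were called higher and 0 lower in *rict-1*. This list holds *dpy-7*, which is also counted below as a furrow collagen of the cuticle. These counts and sums therefore do not separate the amount of epidermis from expression of cuticle genes, and their part was not tested. The listed marker *nhr-73*, was at 0 in all wild-type libraries. The 9 listed epidermis markers summed to 4795 to 8977 in *lin-29*, 3376 to 3643 in *rict-1* and 2735 to 3118 in wild-type. Of 3 adult epidermis markers tested, 1 was called higher and 2 lower in *lin-29*, and 0 were called in *rict-1*. In *lin-29; fbxl-5* the counts were also 1 and 2, with and without its replicate 3. With all libraries, 19.5% of all genes were called higher and 19.5% lower there. Markers of other tissues were counted as well. Of 5 sperm markers, 4 were called higher and 0 lower in *lin-29*, with sums of 194 to 444 in *lin-29* and 50.4 to 69.0 in wild-type. Of 6 oocyte and germline markers, 0 were called higher and 3 lower in *lin-29*, with sums of 81040.4 to 87344 in *lin-29* and 103081 to 125364 in wild-type. Of 4 intestine markers, 1 was called higher and 2 lower in *lin-29*, and 2 were called higher and 0 lower in *rict-1*, with sums of 434173 to 586138 in *lin-29*, 1820976 to 2023883 in *rict-1* and 1358263 to 1523430 in wild-type. The 1 higher of 4 in *lin-29* is near the share over all genes. The intestine list holds the yolk protein (vitellogenin) genes *vit-2* and *vit-6*. Its counts and sums therefore do not separate the amount of intestine from expression of yolk genes. No marker of these 3 lists was at 0 in all libraries of a genotype, and their part in the results was not tested.

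The double mutant *rict-1; fbxl-5* had 0 of 10 genes called against wild-type, by limma with Benjamini-Hochberg adjustment at an FDR of 1%, where 7.36% of all genes were called higher and 3.56% lower. At an unadjusted p under 0.05 there were 5 genes, edgeR called 0 and DESeq2 called 2. *fbn-1* had 294, 320.3 and 579.9 normalized counts in *rict-1; fbxl-5*, against 124, 294 and 92.7 in wild-type, a log2 fold change of 1.33 ± 0.39 (adjusted p = 0.0230, limma). *mlt-11* had 206, 282 and 465 in *rict-1; fbxl-5*, against 117, 189.7 and 43.6 in wild-type, a log2 fold change of 1.59 ± 0.54 (adjusted p = 0.0469, limma). Replicate 3 of the double mutant was the highest for both genes. Without wild-type replicate 2, *fbn-1* was called (1.81, adjusted p = 0.00243, limma).

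Within *rict-1* animals, loss of *fbxl-5* gave 0 calls of 10 by limma with Benjamini-Hochberg adjustment, where 1.06% of all genes were called lower and 0.327% higher, and 0 genes had an unadjusted p under 0.05 or were called by edgeR or DESeq2. The median log2 fold change was -0.15, against 0.01 over all genes. The labels state no pairing, and the libraries of these 2 genotypes were taken as paired by replicate number because their values correlated. The next fit was chosen after the data were seen. In a fit of these 6 libraries with the replicate number as a block, 4 genes were called lower: *mlt-11* at -0.69 (adjusted p = 0.00148), *fbn-1* at -0.80 (adjusted p = 0.00272), *noah-2* at -0.70 (adjusted p = 0.00304) and *noah-1* at -0.66 (adjusted p = 0.00912). The share of all genes called in this blocked fit was not counted, so these calls have no such share beside them. For all 18 libraries with the block the count remained 0. *fbn-1* had 294, 320.3 and 579.9 normalized counts in *rict-1; fbxl-5*, against 570.1, 735 and 694 in *rict-1*, so each double mutant library was below the single mutant library of its number while the groups overlapped. *noah-2* had 298, 379 and 634, against 517, 803 and 739 in *rict-1*, with the same order within each number. *hch-1*, 1 of the 7 embryo markers, was at 85.9, 82.3 and 198 in *rict-1; fbxl-5* and 217, 284 and 270.4 in *rict-1*. Of the 7 markers 0 were called in this comparison by limma, and their median log2 fold change was -0.16. The part of embryos was not tested. As an interaction, 0 of 10 genes passed for the *fbxl-5* effect in *rict-1* minus that in wild-type, where 0.631% of all genes were called higher and 0.223% lower, with 5 at an unadjusted p under 0.05 and 0 by edgeR or DESeq2.

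In some pairs of libraries of the same genotype these genes differed by more than the typical gene did, by their median most in *lin-29* and wild-type. In *lin-29*, replicate 1 was highest for 8 genes and replicate 2 for 2, and replicate 3 was lowest for all 10. The median difference of replicate 1 minus replicate 3 over the 10 genes was 1.74 on the log2 scale, with 9 genes over 2-fold apart, while the median absolute difference over all genes tested was 0.32 and 17.4% of them were over 2-fold apart. *nas-37* and *mlt-10* were the most uneven, with 6.57-fold and 4.94-fold between their highest and lowest *lin-29* libraries, and *fbn-1* the least, with 1.93-fold. In *lin-29; fbxl-5*, replicate 1 was highest for 7 genes and replicate 3 lowest for 6, and *nas-37* ran the other way, with 365, 189 and 464 normalized counts. Replicate 1 minus replicate 2 of *lin-29; fbxl-5* had a median of 0.73, against a median absolute difference of 0.25 over all genes. The labels call the replicates biological, and their number carries no order.

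Genotypes in which these genes were less abundant had their own order of libraries. In wild-type, replicate 2 was highest for 9 genes and replicate 3 lowest for 7, and replicate 2 minus replicate 3 had a median of 1.14, with 5 genes over 2-fold apart, where the median absolute difference over all genes was 0.16 and 4.25% were over 2-fold apart. The 5 genes were *mlt-9*, *mlt-11*, *noah-1*, *noah-2* and *fbn-1*, with 18.05-fold, 4.35-fold, 2.66-fold, 3.47-fold and 3.17-fold between highest and lowest, while *mlt-7*, *mlt-10* and *nas-37* stayed within 1.17-fold. In *rict-1*, replicate 2 was highest for 9 genes and replicate 1 lowest for 8, and in *rict-1; fbxl-5*, replicate 3 was highest for 7 and replicate 1 lowest for 7. Replicate 1 minus replicate 2 of *rict-1* had a median of -0.56, against a median absolute difference of 0.31 over all genes. Replicate 1 minus replicate 3 of *rict-1; fbxl-5* had a median of -1.03, against 0.17, with 5 genes over 2-fold apart and 5.91% of all genes. The *fbxl-5* libraries were even, with no gene of the 10 over 2-fold apart in any pair and a widest range of 1.83-fold, for *mlt-9*, and replicates 2 and 3 of *rict-1* differed by a median of 0.16, against a median absolute difference of 0.24 over all genes. These differences between libraries entered the spread that the limma fit of 18 libraries used.

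**Figure D4:**
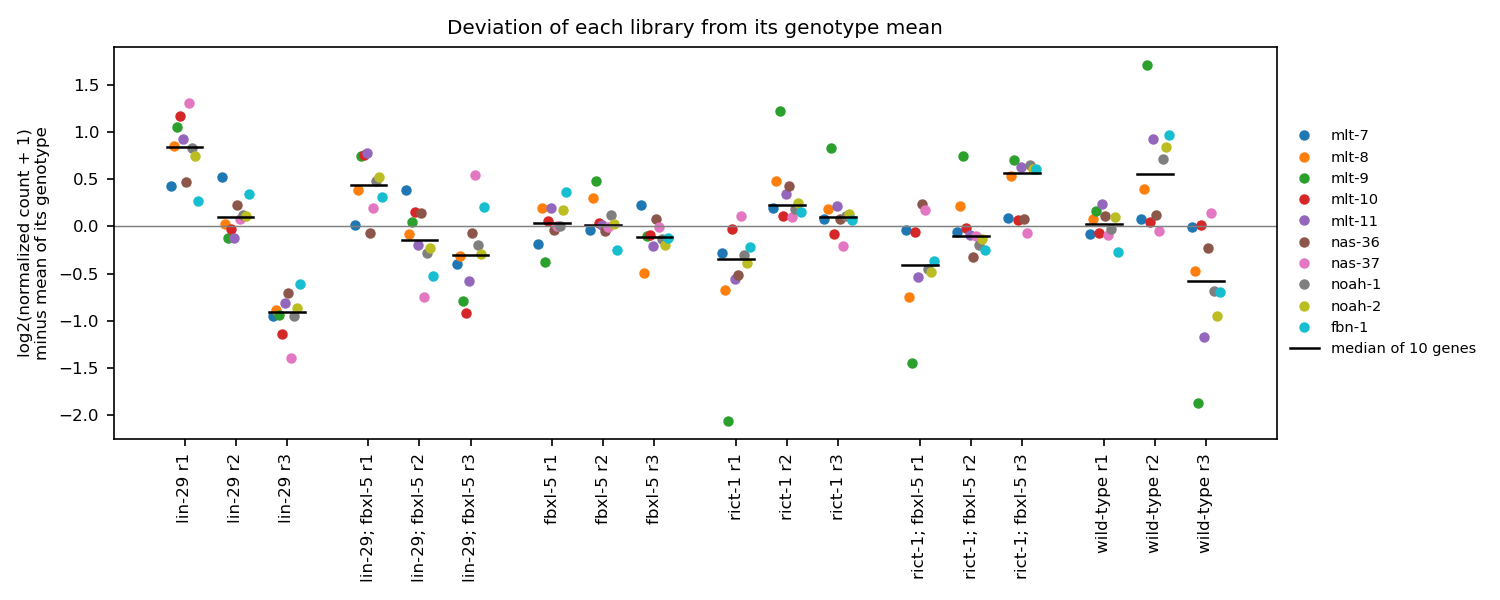
Deviation of each library from the mean of its genotype, as log2(normalized count + 1), for the 10 genes (coloured points) with their median (line). The median is 0.84 in *lin-29* replicate 1 and -0.91 in *lin-29* replicate 3, where all 10 points are below 0, and it lies between -0.11 and 0.03 in the 3 *fbxl-5* libraries.

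Across the 18 libraries, 9 of the genes varied together and *nas-37* did not. The Pearson correlation of log2(normalized count + 1) had a median of 0.895 over the 36 pairs without *nas-37*, between 0.235 and 0.997, and a median of -0.287 over the pairs with it. These correlations are descriptions over 18 libraries that share genotypes and, within a library, its depth and its animals. Around the genotype means, the 36 pairs had a median of 0.649, and *nas-37* had a median of 0.449 with the other genes. The closest pair was *mlt-11* and *noah-2*, at 0.997 over the libraries and 0.980 around the genotype means. *mlt-7* was the least like the rest among the 9, with a median of 0.521.

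The genes with the most similar pattern were sought by the same correlation outside the 10, among 10293 genes with a mean of at least 50. *mlt-8* was nearest to *ZK84.1* (r = 0.993) and then to the patched-related gene *ptr-3* (r = 0.992), *mlt-9* to *pqn-32* (r = 0.993) and then to the lipocalin gene *lpr-4* (r = 0.992), and *mlt-10* to *Y34B4A.10* (r = 0.973) and then to the cadherin gene *cdh-12* (r = 0.972). *lpr-3*, which encodes a lipocalin of the precuticle, was the nearest to *mlt-11* (r = 0.989) and to *noah-2* (r = 0.987), and *sym-1*, which encodes an extracellular leucine-rich repeat protein, was the nearest to *fbn-1* (r = 0.968). *mlt-7* was nearest to *idpp-15* (r = 0.957) and then to the pharyngeal myosin gene *myo-2* (r = 0.955), *nas-36* to the asparagine synthetase gene *asns-1* (r = 0.983), *noah-1* to *rml-3* (r = 0.980) and *nas-37*, with the lowest value, to *H04D03.4* (r = 0.875). All of these are over 18 libraries and carry no test.

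Lists of related genes were counted in the same comparisons. Of 29 precuticle genes tested out of 38 listed, which include the *cutl* genes for cuticlin-like proteins, 23 were called higher and 1 lower in *lin-29* than in wild-type, with a median log2 fold change of 2.38, where -0.01 was the median of all genes and 22.6% of all genes were called higher. The largest were *lpr-3* (log2 fold change 4.77 ± 0.53), *cutl-8* (4.62 ± 0.68) and *cutl-28* (3.998 ± 0.49). Of 16 other molting genes, 8 were called higher and 0 lower, led by the patched-related *ptr-4* (6.44 ± 0.74), the hedgehog-related *qua-1* (5.88 ± 0.63) and *acn-1*, related to angiotensin-converting enzyme (5.30 ± 0.46). *ptr-4* had 2314, 1271 and 519 normalized counts in *lin-29*, against 11.7, 38.6 and 3.63 in wild-type. *mlt-8*, *mlt-9*, *mlt-11*, *nas-36*, *noah-1* and *noah-2* had the same order of libraries in both genotypes.

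The counts that follow stand beside 22.6% of all genes called higher and 18.4% called lower in *lin-29*. All 6 furrow collagens, which pattern the annular grooves of the cuticle, were called higher in *lin-29* (median 5.19), with *dpy-8* at 6.39 ± 0.58, *dpy-3* at 5.60 ± 0.57 and *dpy-7* at 5.24 ± 0.53. Of 27 other astacin genes tested out of 34 listed, 15 were called higher and 4 lower, with *nas-38* (6.50 ± 0.37), *nas-30* (6.25 ± 0.49) and *nas-27* (5.52 ± 0.62) the largest. Of 6 peroxidase and dual oxidase genes tested, 2 were called higher, *skpo-2* (6.33 ± 0.69) and *doxa-1* (1.10 ± 0.22), and 1 lower, *skpo-1* (-0.43 ± 0.09). Of 7 genes of the *mlt-10* family tested out of 12 listed, 2 were called higher, *mltn-12* (3.63 ± 0.46) and *mltn-3* (3.35 ± 0.65), and 0 lower. The peroxidase and *mlt-10* family counts of genes called higher are small and near the share over all genes. Among 7 regulators of molting, 5 were called higher, with *lin-42* (2.52 ± 0.28), *bed-3* (1.86 ± 0.21) and *grh-1* (1.54 ± 0.25) the largest. *nhr-23*, the nuclear receptor that drives molting gene pulses, chosen here after its values were seen, had 1447, 1254 and 1184 normalized counts in *lin-29*, against 1531, 1425 and 1345 in wild-type (log2 fold change -0.15, adjusted p = 0.334, limma).

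In *lin-29; fbxl-5* against wild-type where 19.5% of all genes were called higher and 19.5% lower, the same lists gave 20 higher and 1 lower of 29 precuticle genes, 6 and 0 of 16 other molting genes, 6 and 0 of 6 furrow collagens, 13 and 4 of 27 astacins, 1 and 0 of 6 peroxidase and dual oxidase genes, 1 and 0 of 7 genes of the *mlt-10* family and 4 and 0 of 7 regulators. Without *lin-29; fbxl-5* replicate 3 these were 18 and 0, 7 and 1, 6 and 0, 13 and 4, 1 and 0, 2 and 0, and 5 and 0, in that order. Against *lin-29* the double mutant had 0 calls in each list by limma, with and without that library, and 0 by edgeR and DESeq2 with all libraries. The list medians ran between -0.49 for the astacins and -0.04 for the regulators with all libraries, and between -0.50 for the astacins and 0.098 for the regulators, whose sign changed, without that library. At an unadjusted p under 0.05 there were 4 astacins, 2 peroxidase genes, 1 precuticle gene and 1 regulator. In *rict-1* against wild-type, where 10.7% of all genes were called higher and 5.78% lower, 8 of 29 precuticle genes were called higher and 1 lower (median 0.82), with *lpr-3* at 2.07, and 2 of 6 furrow collagens higher and 0 lower, *dpy-3* at 2.53 and *dpy-7* at 2.05, while the 27 astacins had 0 calls by limma, edgeR and DESeq2, 6 at an unadjusted p under 0.05 and a median of -0.14. The other molting genes had 0 calls higher and 2 lower of 16, the *mlt-10* family 0 higher and 1 lower of 7, and the regulators 1 higher and 0 lower of 7. The peroxidase and dual oxidase genes had 0 calls by limma, edgeR and DESeq2, with 3 of 6 at an unadjusted p under 0.05.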

How the data were processed

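The labels name 3 biological replicates of whole day 1 adults per genotype, and mRNA-Seq libraries were made with the TruSeq RNA kit v2, which does not mark strand. The authors' 50-base single-end reads were aligned to the WS260 genome. They then deposited 1 signal value per gene and library, the count of reads over the DESeq2 size factor of the library. The submitters' processing notes name STAR, featureCounts, Subread and DESeq2. The authors' own comparison tables, which hold scores, fold changes and p-values, were not used. All deposited values (100%) were multiples of 1 read of their library within 0.001 reads, so reads were recovered for edgeR and DESeq2. The median library held 23622752.5 reads on genes. Values near 10 therefore rest on few reads, and counting error is small for higher ones.

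Genes averaging 10 or more across libraries (13472 of 24998) were fitted on log2(value + 1) with limma 3.58.1 (R 4.3.3), using 1 mean per genotype, an intensity trend and robust moderation. Adjustment was by Benjamini-Hochberg over those genes, and calls were made at an FDR of 1%, as in the study's methods. Interactions were contrasts of the same fit. P-values test differences of genotype means against the spread between these libraries, with 1 strain per genotype. Alternatives were a pseudocount of 0.5, no filter, TMM factors, edgeR 4.0.16, DESeq2 1.42.0, only the genotypes compared, an FDR of 5%, the replicate number as a block and each library left out. The computation was tested on simulated data. The 10 genes and the gene lists were chosen with earlier results of these data known. All 10 were named, with at most the 3 largest called genes of each list in *lin-29* against wild-type and up to 2 of the most similar genes for each of the 10. RPKM used union exon lengths of the WBcel235 annotation. Sequences were not analysed here.

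Pairing by replicate number was checked by correlating, over genes, the deviations of same-numbered libraries from the mean of their genotype. For *rict-1; fbxl-5* and *rict-1* the correlations were 0.646, 0.394 and 0.237, each past the limit of 0.1. These libraries were treated as paired on the strength of the values, since the labels state no pairing. None of the other comparisons met the limit in every pair.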

Additional observations from a re-analysis of the deposited data

How the results depend on the processing

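In *lin-29* against wild-type and in *lin-29; fbxl-5* against wild-type the 8 genes were called higher under each alternative fit and with each library left out, except that *fbn-1* missed the threshold in *lin-29; fbxl-5* when only these libraries were fitted (adjusted p = 0.0143, limma) and that 9 genes were called in *lin-29* without *lin-29* replicate 3. Over the 10 genes and 7 comparisons, 923 of 990 alternative values kept their direction and their side of the threshold, 26 newly passed it, 22 no longer passed it and 19 changed sign, all of them uncalled. In *lin-29; fbxl-5* against *lin-29* the count of called genes was 1 at an FDR of 5%, by edgeR and by DESeq2, and 0 to 2 with a library left out. In *fbxl-5* against wild-type it was 2 with only the genotypes compared. In *rict-1* against wild-type it was 1 with no filter, 2 by edgeR and 1 to 4 with a library left out. In *rict-1; fbxl-5* against wild-type it was 3 at an FDR of 5%, 2 by DESeq2, 3 with only the genotypes compared and 0 to 1 with a library left out. The interaction for *lin-29* gave 1 at an FDR of 5% and by DESeq2 and 0 to 1 with a library left out, and that for *rict-1* gave 2 with only the genotypes compared. With the replicate number as a block in all 18 libraries, *noah-1* was no longer called in *rict-1* against wild-type (log2 fold change 1.69, adjusted p = 0.0125, limma), and no other call changed. With the replicate block and only the 6 libraries of *rict-1; fbxl-5* and *rict-1*, a fit chosen after seeing the data, 4 genes were called. Shares of all genes called were counted for the main limma fit only, not for the alternatives. The sign of *nas-37* in *lin-29* against wild-type changed by edgeR (0.25) and DESeq2 (0.18). With a library left out, signs changed among uncalled values: in *lin-29* against wild-type *nas-37* (-0.86 to 0.49), in *lin-29; fbxl-5* against wild-type *mlt-7* (-0.14 to 0.25), in *lin-29; fbxl-5* against *lin-29* *mlt-9* (-0.67 to 0.33), *nas-37* (-0.92 to 0.44), *noah-1* (-0.76 to 0.13) and *noah-2* (-0.77 to 0.032), in *rict-1* against wild-type *nas-36* (-0.065 to 0.41), in *rict-1; fbxl-5* against wild-type *nas-36* (-0.054 to 0.23), and in *rict-1; fbxl-5* against *rict-1* *mlt-7* (-0.022 to 0.22), *mlt-8* (-0.47 to 0.24), *mlt-9* (-0.41 to 1.34) and *nas-36* (-0.34 to 0.13). The causes were not tested. In *fbxl-5* against wild-type, the lists' single calls among precuticle, peroxidase and astacin genes became 0 each without *fbxl-5* replicate 3, a check added after seeing the data. The values with the fewest reads were those of *mlt-9* in wild-type, where 1 library held 2 reads.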
